A study of Mus musculus with 6 samples.

Results

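miR-146a, miR-146b, miR-155, miR-132 and miR-212 are small RNAs known to be raised by inflammatory signals such as LPS, a bacterial cell wall component. They were chosen by name, taking every arm and every end variant listed under any species prefix, which gave 12 of 756 features, where a feature is a listed name with its sequence. The study sequenced small RNA from cells labelled Mes23.5, a dopaminergic line made by fusing mouse neuroblastoma cells with rat midbrain cells. In the SIX2_EV group, 3 libraries came from cells given extracellular vesicles of microglia overexpressing the transcription factor SIX2. In the control_EV group, 3 libraries came from cells given vesicles of control microglia. Every library of both groups was labelled with LPS for 24 h, and no library without LPS or without vesicles was analysed here, so whether LPS or vesicles raised these miRNAs cannot be told from these data. The growth protocol speaks instead of BV2 cells, which are mouse microglia. The labels do not state whether the 3 libraries of a group are separate cultures, so p-values cover the spread from library to library, and that spread may be technical.

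A microRNA is cut from a hairpin precursor and represses messenger RNAs that pair with its seed, the bases at positions 2 to 8. LPS acts through Toll-like receptor 4, which activates the transcription factor NF-κB. miR-146a is a target of NF-κB that represses the adaptors IRAK1 and TRAF6, and so damps the same pathway. miR-155 is made from the transcript of the Mir155hg gene and is known to sustain inflammatory responses, for example by repressing the inhibitor SOCS1. miR-132 and miR-212 come from neighbouring hairpins, are controlled by the transcription factor CREB in neurons, and are known for roles in neurite growth and, for miR-132, in damping inflammation.

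The sequences below are shown because they define which members can share targets. They are as deposited, in DNA letters from the 5′ end, with the seed in capitals. Names are those of the table (rno rat, bta cattle, cpo guinea pig), where R+1, R-1 or R-2 marks a shifted 3′ end, and both prefix and suffix are left off in the rest of the text. The first 3 share a seed, as do the next pair and the last pair.
rno-miR-146a-5p: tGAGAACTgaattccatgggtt
rno-miR-146b-5p: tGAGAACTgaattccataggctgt
bta-miR-146a_R-2: tGAGAACTgaattccataggtt
rno-miR-132-3p: tAACAGTCtacagccatggtcg
rno-miR-212-3p_R-1: tAACAGTCtccagtcacggcc
rno-miR-155-5p_R+1: tTAATGCTaattgtgataggggtt
cpo-miR-155-5p_R-1: tTAATGCTaatcgtgataggggt

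Counted from 1 at the 5′ end, miR-146b-5p differed from miR-146a-5p by G18A and T21C, outside the seed, over the 22 bases they share in length. miR-212-3p differed from miR-132-3p by A10C, C14T, T17C and T20C over 21 bases. No feature outside the chosen names carried any of the seeds found among them. Of the 12 features, 9 had rat names, and all 9 occurred unbroken in the mouse RefSeq hairpins of build GRCm38.p6, so these names do not by themselves tell rat RNA from mouse RNA. The other 3 features had cattle or guinea pig names and differed from the mouse hairpin by G18A (cattle-named miR-146a), by T12C (guinea pig-named miR-155) and by T12C and G22A (cattle-named miR-155).

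Ends differed from the RefSeq mouse mature forms in 5 of the 9 sequences found in the hairpins. miR-146b-5p was 2 bases longer at its 3′ end, miR-155-5p was 1 base longer and miR-212-3p 1 base shorter. miR-132-5p, the minor arm, began 1 base later than the RefSeq form, which moves its seed, and miR-146a-3p began 1 base earlier.
miR-132-5p: aCCGTGGCtttcgattgttact
miR-146a-3p: aCCTGTGAaattcagttcttca
miR-146a-3p was the one rat-named member listed with substitutions against its rat form. Its sequence differed from the rat form by G10A and T21C and was found without mismatch in the mouse hairpin, though it rested on 7 reads of 1 library.

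In RefSeq (GRCm38.p6), the hairpin of miR-146a (gene Mir146) lies on the minus strand at chr11:43374397-43374461, and GENCODE M21 places no other gene over it. Mir146b lies at chr19:46342762-46342870 in an intron of the protein-coding gene Mfsd13a. Mir155 lies at chr16:84714140-84714204 within an exon of the long non-coding RNA Mir155hg. Mir212 (chr11:75173388-75173478) and Mir132 (chr11:75173682-75173747) lie on the plus strand in an intron of the transcript 1700016P03Rik, with 203 bases between the hairpins. Deposited positions are in a build not given in the sources used here and were not mixed with these.

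The libraries held between 179621 and 421279 deposited reads, but the share from mature miRNAs with a hairpin placed on the mouse genome ran from 6.79% to 32.7% in SIX2_EV and from 31.5% to 70.9% in control_EV. The SIX2_EV libraries thus rest on 24948, 15788 and 60147 mature reads, against 81154, 143548 and 298535 in control_EV, and the part of this gap in the results was not tested. The third libraries of both groups stood apart in sequences named mir-1285, which took 7.94% and 7.48% of their reads and at most 0.447% elsewhere. Levels below are in CPM, reads set to a common library size after TMM scaling, whose factors ran from 0.305 to 2.71. A sequence appears to be listed in a library only from about 5 reads, which are worth 22.9 to 70.5 CPM in SIX2_EV and 4.50 to 18.4 CPM in control_EV, so a value of 0 means listed at 0. In whole cultures, fewer cells of a type and less RNA per cell cannot be told apart.

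Of the 12 features, 5 passed the filter on low counts and were tested: miR-146a-5p, miR-146b-5p, miR-132-3p, miR-212-3p and miR-155-5p. By edgeR's quasi-likelihood test 0 of these 5 passed an adjusted p of 0.05, beside a background of 0% (0 of 319 features). Before adjustment 1 of the 5, miR-132-3p, had a p under 0.05, against 11.9% of all features (38 of 319, of which 21, or 6.58% of all, were lower in SIX2_EV). limma-voom also called 0, with 61 under 0.05 before adjustment. The 20 features that DESeq2 called (6.27% of 319) held none of the 5. Of the 5 values 4 were negative, beside 62.7% over all tested features, and their median log2 fold change was -0.25, beside -0.28 over all.

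miR-146a-5p, the NF-κB-induced brake on Toll-like receptor signalling, was by far the most abundant member. The SIX2_EV libraries held 3015, 2092 and 5602 of its reads and the control_EV libraries 9014, 16663 and 21045. On the CPM scale these were 28885, 29501 and 25671 against 33217, 40175 and 18949. The control_EV libraries lay on both sides of the SIX2_EV libraries, and the third control_EV library was the lowest of all 6. Group means were 28019 ± 2057 CPM and 30781 ± 10821 CPM (SD, n = 3), which gave it rank 10 in SIX2_EV and rank 5 in control_EV among all features. The log2 fold change was -0.14 (SE 0.46, adjusted p 0.95 by edgeR's quasi-likelihood test), within the spread between libraries. Its sign turned, to 0.0581 when mature miRNAs alone were fitted, 0.0495 without SIX2_EV replicate 3 and 0.0599 without control_EV replicate 2.

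miR-146b-5p, which shares the seed of miR-146a-5p but is made from its own gene, was read 104, 50 and 182 times in the SIX2_EV libraries and 215, 406 and 806 times in those of control_EV. Its levels were 996, 705 and 834 CPM against 792, 979 and 726 CPM, and the groups overlapped throughout. The log2 fold change was 0.02 (SE 0.26, adjusted p 0.982 by edgeR's quasi-likelihood test). That sign depends on the scaling, with -1.30 under total counts and -0.0689 under upper quartile scaling. Before rounding, the counts of miR-146a-5p and miR-146b-5p were not whole in the third SIX2_EV library and the first control_EV library, as they are for sequences whose reads are divided over several entries.

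miR-155-5p, the pro-inflammatory member, rested on few reads, namely 17, 10 and 48 under SIX2_EV and 49, 92 and 249 under control_EV. In CPM this was 163, 141 and 220 against 181, 222 and 224. The third SIX2_EV library lay among the control_EV values and the other SIX2_EV libraries below them. The log2 fold change was -0.25 (SE 0.52, adjusted p 0.875 by edgeR's quasi-likelihood test), close to the median of all features.

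miR-132-3p was the one member whose groups did not overlap. The SIX2_EV libraries held only 13, 10 and 34 of its reads, while the control_EV libraries held 68, 142 and 486. On the CPM scale 125, 141 and 156 stood against 251, 342 and 438, so every SIX2_EV library lay below every control_EV library. Means were 140 ± 15.6 and 344 ± 93.5 CPM (SD, n = 3). The log2 fold change was -1.29 (SE 0.49, unadjusted p 0.0375, adjusted p 0.373 by edgeR's quasi-likelihood test), so it did not pass. The exact two-sided permutation p was 0.1, the smallest that 3 against 3 libraries allow. Among all tested features 16.6% were lower in SIX2_EV without overlap, and miR-132-3p had the 28th smallest p of 319. With adjusted p from 0.0638 (DESeq2) to 0.941 (without control_EV replicate 2) over the alternatives, it passed in none of them. The unadjusted p ran from 0.0049 (DESeq2) to 0.139 (edgeR without control_EV replicate 3), so it was not under 0.05 in all of them. Its log2 fold change was -1.01 in replicates 1 and 2 alone. In the authors' normalized signal it stood at 29.96, 33.99 and 36.3 against 57.6, 80.4 and 110 units, again without overlap.

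miR-212-3p, which shares the seed of miR-132-3p, split the SIX2_EV libraries. It was listed at 0 in the first and second SIX2_EV libraries and had 68 reads in the third, against 58, 104 and 406 reads in control_EV. In CPM the third SIX2_EV library stood at 312, between the control_EV values of 214, 251 and 366. The log2 fold change was -1.35 with an SE of 1.69 (adjusted p 0.82 by edgeR's quasi-likelihood test). Over the same 6 libraries it was -4.01 by limma-voom (unadjusted p 0.0181, adjusted p 0.202) and -3.96 by limma on the authors' normalized signal (adjusted p 0.294), and with the 0 values set to 4 reads it was -0.95 in edgeR (adjusted p 0.59), so its size depends on the tool and on how the 0 values enter. Replicates 1 and 2 alone were fitted after seeing the data. That fit drops the only SIX2_EV library where miR-212-3p was listed, so a lower value there follows in part from the choice of libraries. On the CPM scale of the fit to all 6 libraries, the mean of miR-212-3p over these replicates was at least 3.92-fold lower in SIX2_EV. That bound takes 5 reads in each SIX2_EV library as the floor. In the fit of replicates 1 and 2 alone its adjusted p was 0.0875 by edgeR's quasi-likelihood test. Leaving out SIX2_EV replicate 3 alone, which drops the same library, gave an adjusted p of 0.115 in the same test. The fitted size is no measure there, since all remaining SIX2_EV values are 0.

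**Figure D1:**
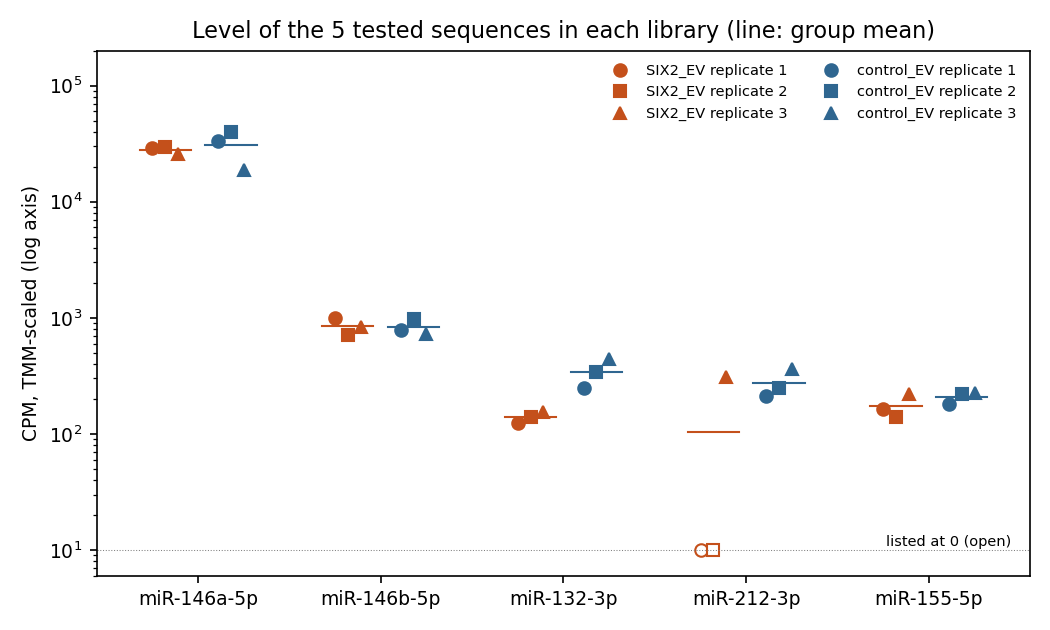
TMM-scaled CPM (log axis) of the 5 tested sequences in each of the 6 libraries, with points for libraries, lines for group means and open points for libraries listed at 0. The groups are apart for miR-132-3p, from 125 to 156 CPM against 251 to 438 CPM in the controls, and miR-212-3p is listed at 0 in 2 SIX2_EV libraries.

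**Figure D2:**
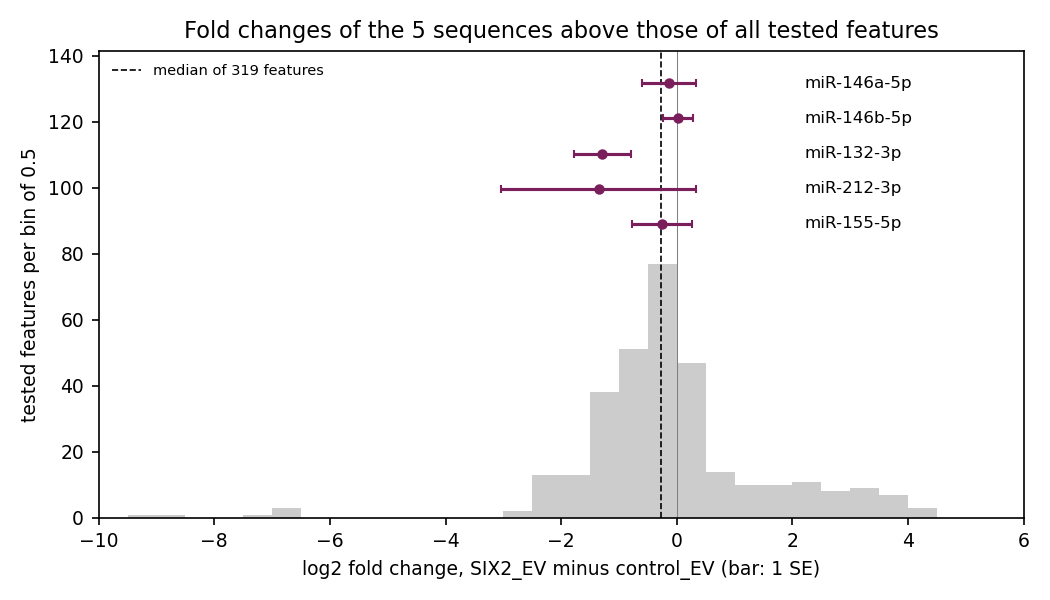
Histogram of the log2 fold changes of all 319 tested features (SIX2_EV minus control_EV), with the 5 sequences drawn above it as points with bars of 1 SE; heights of the points carry no value. miR-132-3p at -1.29 and miR-212-3p at -1.35 lie left of the median of -0.28, and the bar of miR-212-3p reaches past 0.

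The order of levels was the same at the top in every library. miR-146a-5p exceeded miR-146b-5p in 6 of 6 libraries, and miR-146b-5p exceeded miR-132-3p, miR-212-3p and miR-155-5p in 6 of 6. The order below them differed by group. miR-132-3p stood above miR-155-5p in 3 of 3 control_EV libraries and in 0 of 3 SIX2_EV libraries, with equal reads in the second. miR-212-3p stood below miR-132-3p in 5 of 6 libraries and above it in the third SIX2_EV library. The mature forms are 21 to 24 bases long, so reads were compared without a length correction; capture of each sequence by the library kit was not calibrated.

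Counting reads against another member of the same library removes the scaling between libraries. For each 100 reads of miR-146a-5p there were 0.431, 0.478 and 0.607 reads of miR-132-3p in SIX2_EV and 0.754, 0.852 and 2.31 in control_EV. The groups did not overlap (exact two-sided permutation p of 0.1, the smallest possible), and the mean was 2.58-fold higher in control_EV. That size leans on the third control_EV library, and without it the fold was 1.59. miR-155-5p had 0.564, 0.478 and 0.857 against 0.544, 0.552 and 1.18 reads per 100 of miR-146a-5p, with full overlap. miR-146b-5p had 3.45, 2.39 and 3.24 against 2.38, 2.44 and 3.83. Against miR-132-3p, miR-212-3p had 85.3, 73.2 and 83.5 reads per 100 in the control_EV libraries. In SIX2_EV the same ratio was 0, 0 and 200 reads per 100. The SIX2_EV ratios rest on only 13, 10 and 34 reads of miR-132-3p, and a sequence appears to be listed only from about 5 reads. miR-155-5p had 131, 100 and 141 reads per 100 of miR-132-3p in SIX2_EV and 72.1, 64.8 and 51.2 in control_EV, again without overlap. In all, 6 such ratios were computed. Those with miR-132-3p reuse the reads behind its CPM levels, so they are no separate support. How many of all features would separate in such ratios was not counted. In CPM the groups did not overlap for 22.9% of all tested features.

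**Figure D3:**
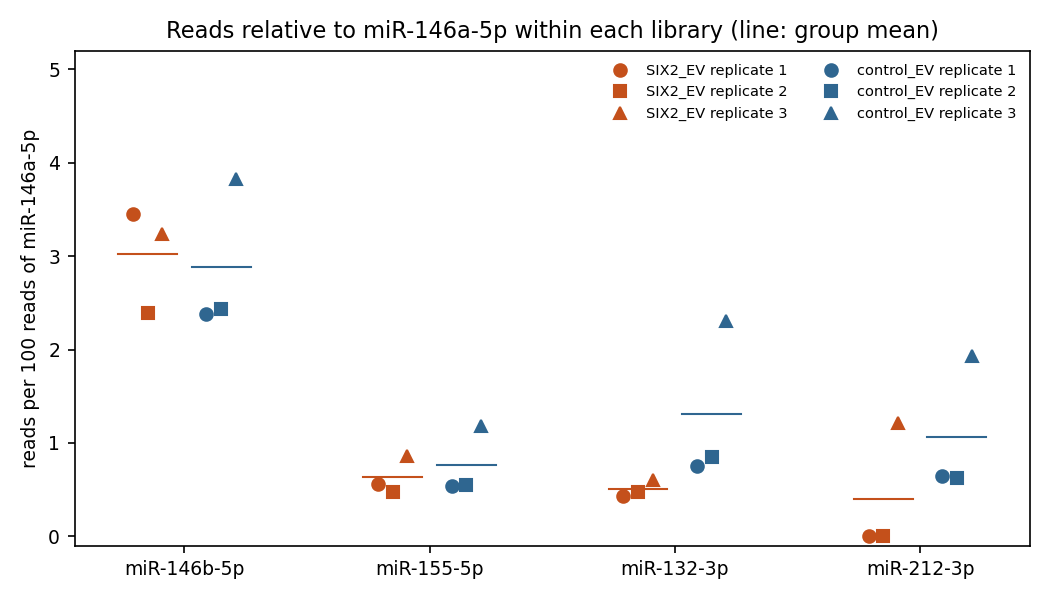
Reads of 4 sequences per 100 reads of miR-146a-5p in the same library (linear axis), with points for libraries and lines for group means. miR-132-3p is at 0.431 to 0.607 in SIX2_EV and 0.754 to 2.31 in control_EV, while miR-146b-5p and miR-155-5p overlap.

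As a share of mature miRNA reads, all sequences named miR-146a took 12.1%, 13.3% and 9.33% in SIX2_EV and 11.1%, 11.6% and 7.06% in control_EV, with cattle- and guinea pig-named forms counted in the numerator but not among mature reads. The third library was the lowest in each group. Of all deposited reads, miR-146a took 1.88% ± 1.09 in SIX2_EV and 5.03% ± 1.54 in control_EV (SD, n = 3), without overlap (exact two-sided permutation p of 0.1), while the mature share of the libraries moved the same way. The direction thus turned with the denominator, from a difference of -3.15 percentage points (SIX2_EV minus control_EV) to one of 1.64. miR-146b also turned: its share of mature reads was 0.345% ± 0.0626 in SIX2_EV and 0.274% ± 0.00927 in control_EV (SD, n = 3), with every SIX2_EV library higher. miR-155 took 0.0704% ± 0.00847 and 0.071% ± 0.0152 of mature reads (SD, n = 3), with overlap. miR-132 was lower in SIX2_EV under both denominators, with 0.0521% (Wilson interval at 95% 0.0305 to 0.0891), 0.0633% (0.0344 to 0.117) and 0.0565% (0.0405 to 0.079) of mature reads in SIX2_EV. In control_EV it took 0.09% (0.0716 to 0.113), 0.0989% (0.0839 to 0.117) and 0.175% (0.16 to 0.19). These intervals cover counting error only, and all 3 SIX2_EV intervals overlap that of the first control_EV library. Shares were tested for 5 miRNAs under 2 denominators, and none could reach a p below 0.1. How many of all features separate under each denominator was not counted. In CPM the groups did not overlap for 22.9% of all tested features. Under total counts the median log2 fold change of all features was -1.54.

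Summed by seed, the miR-146 seed took 12.5%, 13.6% and 9.63% of mature reads in SIX2_EV and 11.4%, 11.9% and 7.33% in control_EV. The shared seed of miR-132-3p and miR-212-3p took 0.0521%, 0.0633% and 0.17% against 0.155%, 0.171% and 0.299%. The third SIX2_EV library, through miR-212-3p, reached the level of the lower control_EV libraries.

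The remaining 7 features did not pass the filter and were not tested. Minor arms were seen mainly in the third control_EV library, the one with the most mature reads. There miR-132-5p had 36 reads beside 486 of miR-132-3p, a share of 6.90% (Wilson interval 5.02 to 9.40), and miR-212-5p had 22 beside 406 of miR-212-3p, or 5.14% (3.42 to 7.66). miR-146b-3p took 1.59% (0.93 to 2.70) of its pair and miR-146a-3p 0.0333% (0.0161 to 0.0686), so the 5p arm of both miR-146 hairpins took nearly all reads while the 3p arm led for miR-132 and miR-212. In other libraries miR-132-5p had 5 reads in the first control_EV library, and miR-212-5p had 7 reads in the first control_EV library and in the third SIX2_EV library. No miR-155-3p was among the rows analysed here. The cattle-named miR-146a was listed with 7 and 11 reads in the first and the third SIX2_EV library, with 21 in the third control_EV library and at 0 elsewhere. The guinea pig-named miR-155 had 10 reads and the cattle-named miR-155 had 5 reads, all in the third control_EV library.

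Among the 5 tested sequences, the choice of scaling changed the sign of miR-146b-5p alone. Under total counts all 5 tested sequences were negative, from -2.74 for miR-132-3p to -1.30 for miR-146b-5p, but the median of all features was then -1.54, and relative to it miR-146a-5p, miR-146b-5p and miR-155-5p differed by 0.10, 0.24 and 0. Relative to the median of all features, miR-132-3p stood at -1.01 with TMM and -1.20 with total counts, but at -0.32 with no filter on low counts, where the median of all 756 features was -1.07. With no filter miR-146a-5p, miR-146b-5p and miR-155-5p stood 0.83, 0.99 and 0.72 above that median. Over the 18 alternatives miR-132-3p and miR-212-3p were negative in every one, and neither passed in any.

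**Figure D4:**
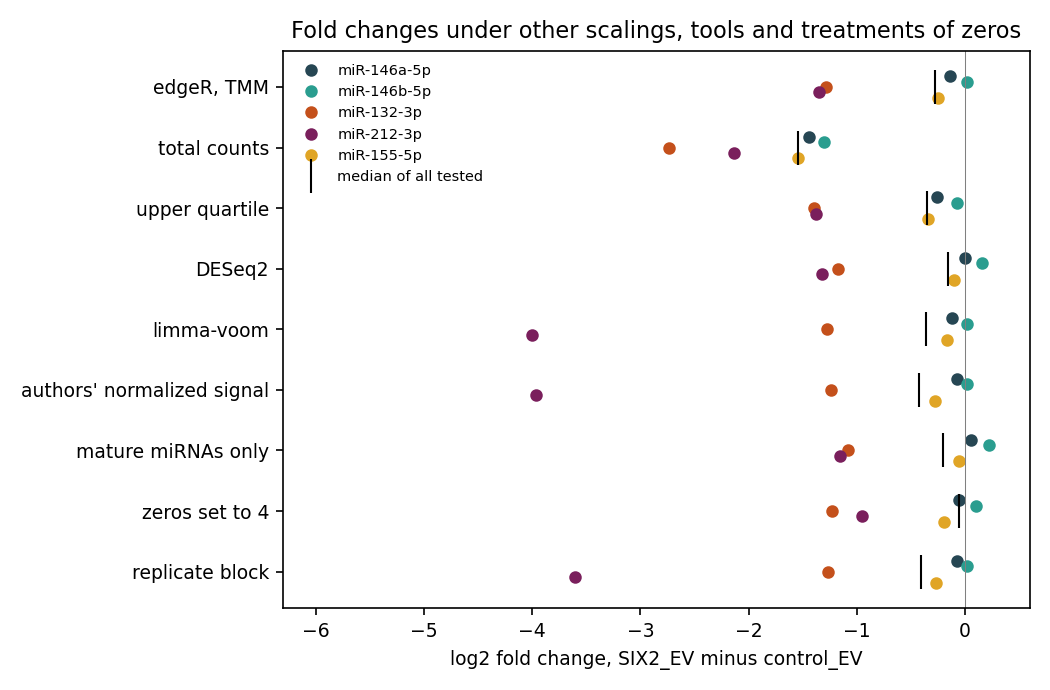
Log2 fold changes of the 5 sequences (SIX2_EV minus control_EV) under edgeR with TMM and the 8 alternatives named on the axis, all with the filter on low counts, with a black tick for the median of all features tested under each. miR-132-3p lies between -2.74 and -1.08 and left of the tick in all 9 rows drawn; the fit with no filter is not drawn.

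Other miRNAs linked to Toll-like receptor 4 or NF-κB signalling were taken from a list of 28, of which 22 were listed by exact name and 18 tested. None rose and none fell by edgeR (0 of 18 in each direction), 13 of 18 values were negative (62.7% over all features), and the median log2 fold change was -0.19 beside -0.28 over all features. Groups did not overlap, with SIX2_EV lower, for 3 of 18, near the background of 16.6%. The smallest p belonged to miR-210-3p, known mainly as the miRNA of hypoxia, at 651 ± 110 CPM with SIX2 vesicles and 1109 ± 126 with control vesicles (SD, n = 3; log2 fold change -0.77, SE 0.25, adjusted p 0.373 by edgeR's quasi-likelihood test). The most abundant was miR-21-5p at 49438 ± 14853 and 57730 ± 5383 CPM (SD, n = 3; log2 fold change -0.22). From a list of 14 other miRNAs regulated by CREB or neuronal activity, 3 were listed and 2 tested, with none past the threshold and a median of 0.20. miR-379-5p had both the smallest p and the highest level, at 94.0 ± 18.2 and 70.9 ± 5.59 CPM (SD, n = 3; log2 fold change 0.40).

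By Pearson's r of log2 CPM over the 6 libraries, the features most like miR-146a-5p were miR-19b-3p (0.995), miR-451-5p (0.954) and the predicted PC-5p-7527_1248 (0.921). Those most like miR-132-3p were miR-151-5p (0.974), miR-128-3p (0.963) and miR-1195 (0.946), and miR-1195 was listed at 0 in all SIX2_EV libraries. For miR-155-5p they were miR-374-5p (0.970), the cattle-named miR-342 (0.950) and miR-362-5p (0.949). For miR-212-3p they were miR-350, miR-378a-5p and miR-21-3p (0.9995, 0.999 and 0.996), all listed at 0 in the same 2 SIX2_EV libraries as miR-212-3p. Among the members themselves, r was 0.746 for miR-132-3p with miR-212-3p, 0.904 for miR-155-5p with miR-212-3p and 0.543 for miR-146a-5p with miR-146b-5p. These are descriptions over 6 points that share depth, zeros and scaling.

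The labelled cell type was set against marker lists, since several members are abundant in myeloid cells. Of 6 myeloid or microglial miRNAs all 6 were listed, with a summed level of 3201 to 5229 CPM in SIX2_EV and 5174 to 5842 CPM in control_EV, most of it miR-142-5p. Of 12 neuronal names 3 were listed, with 2069 to 3061 and 2300 to 3192 CPM, mostly miR-7a-5p. By member, 4 of 4 tested myeloid and 3 of 3 tested neuronal miRNAs had negative log2 fold changes, beside 62.7% of all tested features. Their medians were -0.79 and -0.73 beside -0.28 over all features, and none passed by edgeR. These medians lean on scarce sequences listed at 0 in some SIX2_EV libraries, such as miR-223-3p (SE 1.77) and miR-150-5p (SE 1.12). The abundant miR-142-5p had a log2 fold change of -0.38 (SE 0.24). For the neuronal miR-128-3p the control_EV mean was 242 ± 50.6 CPM and the SIX2_EV mean 101 ± 25.1 (SD, n = 3). Its log2 fold change was -1.25 (SE 0.58, adjusted p 0.493 by edgeR's quasi-likelihood test), beside -1.29 for miR-132-3p. miR-7a-5p, most of the neuronal sum, was nearly level, with means of 2193 CPM in SIX2_EV and 2246 CPM in control_EV (log2 fold change -0.03). miR-129-5p had a log2 fold change of -0.73 with an SE of 1.42. The defining neuronal miRNA miR-124-3p was not among the rows analysed here. Under variant rat names, miR-9a-5p had 7 reads and miR-218a-5p 21 reads, each in 1 control_EV library. Red blood cell or serum miRNAs, 5 of 7 names listed, summed to 14554 to 22035 CPM in SIX2_EV and 9352 to 30374 CPM in control_EV. The part of these other cell types in the levels of miR-146a, miR-155, miR-132 and miR-212 was not tested.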

How the data were processed

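Small RNA of 6 libraries, 3 SIX2_EV and 3 control_EV, was analysed. Per the labels' protocols, the authors used a TruSeq small RNA kit, and ACGT101-miR filtered out adapter, low-complexity, repeat and common structural RNA reads. Build and mapping settings were not given in the sources used here. Values deposited are estimated counts, some not whole (per the file headers, raw), and the authors' normalized signal, equal to the counts times 1 factor per library. Rows of one name and sequence were summed to 756 features and rounded. Groups were compared with edgeR 4.0.16 (quasi-likelihood, TMM, filterByExpr, no block, Benjamini-Hochberg over 319 features; R 4.3.3); the SE is the fold change divided by the root of F. The procedure was tested on simulated data. DESeq2 1.42.0, limma 3.58.1 and scipy 1.17.1 served the alternatives and intervals. Named miRNAs are all features of the chosen names, the 3 features most correlated with each of 4 members, and for each list the smallest p and the highest level. Members and lists were chosen with earlier results of these data known. No replicate pair agreed within counting error (chi-square per degree of freedom of at least 56.9).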

Additional observations from a re-analysis of the deposited data

How the results depend on the processing

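No tested member passed the threshold with edgeR, or under any of the 18 alternatives, including replicates 1 and 2 alone, which was chosen after seeing the data. DESeq2 called 20 of 319 features and every other alternative 0 (0 to 0 without single libraries). miR-132-3p, miR-155-5p and miR-212-3p kept a negative sign in all 18; without single libraries they ranged from -1.49 to -0.96, from -0.37 to -0.08 and from -9.76 to -0.86. miR-146a-5p turned to 0.0581 with mature miRNAs only and ranged from -0.268 to 0.0599 without single libraries. miR-146b-5p turned to -1.30 with total counts, -0.0689 with upper quartile scaling, -0.0853 with no filter and -0.0847 with a filter of 10 CPM, and ranged from -0.15 to 0.21 without single libraries. The causes were not tested. Shares of miR-146a and miR-146b turned to 1.64 and 0.0713 percentage points higher in SIX2_EV with mature reads as denominator. The labels tie same-numbered libraries by their number alone. Correlations of deviations were 0.209, 0.0659 and 0.672, and not every library correlated best with its own number. The third libraries, at 0.672, were also the ones high in mir-1285 sequences. With the replicate block 0 features were called, 42 had an unadjusted p under 0.05, and miR-132-3p and miR-212-3p had log2 fold changes of -1.26 and -3.60. Depth limits miR-132-3p, miR-155-5p and miR-212-3p, with at most 68 reads in any SIX2_EV library.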
